A study of Sus scrofa with 8 samples.

Results

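RAB proteins are the largest branch of small GTPases that direct vesicle traffic. Their messenger RNAs were followed here in pig endometrium, the inner lining of the uterus. Members were the genes of the deposited count tables whose pig symbol is RAB followed directly by a digit. This gave 60 of the 21064 Entrez genes, of which 52 encode RAB GTPases and 8 encode partner proteins that carry a RAB name. Where a gene had several transcripts, as 7 members did, the one with the most reads on average was used. A further 8 symbols of the reference gene table met the rule without a match and were not analysed here, namely RAB5A, RAB5B, RAB12, RAB15, RAB36, RAB40C, RAB43 and RAB11FIP1.

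A RAB switches between a form bound to GTP, which sits on a membrane and recruits effector proteins, and a form bound to GDP, which a dissociation inhibitor keeps in the cytosol. Exchange factors load GTP, GTPase-activating proteins end the active state, and effectors such as motors, tethers and membrane fusion factors move the vesicle and dock it. Each step of traffic has its own RABs, from the endoplasmic reticulum (ER) and Golgi through secretion to the endosomes and lysosomes. The glands and surface epithelium of the endometrium secrete the fluid that feeds the early conceptus, and epithelial cells use several of these RABs to sort cargo to their apical side.

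The libraries came from 8 German Landrace gilts before puberty, all given 750 IU of PMSG and 72 h later 500 IU of hCG, hormones that bring on follicle growth and ovulation. In the pregnant group 4 gilts were inseminated with Pietrain semen 24 h and 36 h after hCG, and in the control group 4 gilts received the supernatant of spun-down semen from that boar. Endometrium without its muscle layer was taken on day 14, in pregnant gilts from the reddened zones of embryo attachment and in controls from matching places, so pregnancy and the choice of zone cannot be told apart. Each library is the poly(A) RNA of 1 animal, pooled over 3 places along 1 uterine horn.

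Total counts per library lay between 28035007 and 41016150, and no pair of libraries had identical counts. Markers of the tissue were present, with the summed level of 10 epithelial markers at 2482 to 3799 CPM, that is, counts scaled to equal library sizes, in controls and 1913 to 2605 in pregnant gilts. Markers of other cells moved with the groups. The sum of 11 T and NK cell markers was 24.0 to 66.7 CPM in controls and 138 to 230.4 in pregnant gilts, that of macrophage and dendritic cell markers 369 to 678 and 1092 to 1456, and that of neutrophil markers 16.4 to 20.2 and 141 to 515. S100A9 made most of the last rise, from 0.45 ± 0.19 to 308 ± 153 CPM, while MMP8 fell, ELANE, MMP9 and CXCR2 did not pass, and MPO was at 0 counts in every library. The sums for stromal fibroblasts were 24880 to 29630 and 16240 to 23760 CPM, for smooth muscle 660 to 1064 and 408 to 614, and for mast cells 56.8 to 114 and 25.3 to 45.0. They were 45.5 to 80.4 and 40.3 to 67.2 CPM for ciliated cells, and 869 to 1341 and 1005 to 1383 for vascular endothelium. COL3A1 and COL1A2 made most of the stromal sum, at means of 14900 and 8719 CPM in controls and 9338 and 7450 in pregnant gilts. THY1 and LUM rose, COL3A1 and DPT fell, and COL1A2, VIM, PDGFRA and DCN did not pass. HDC made most of the mast cell fall, from 49.5 ± 22.4 to 6.24 ± 3.24 CPM, while KIT, MS4A2 and FCER1A did not pass. In edgeR's quasi-likelihood fit, with p-values adjusted by Benjamini and Hochberg's method, 11 of 11 T and NK cell markers rose, as did 7 of 9 tested macrophage and dendritic cell markers (1 fell) and 3 of 7 neutrophil markers (1 fell), 2 of 8 stromal markers (2 fell) and 1 of 9 endothelial markers (0 fell). Of the 10 epithelial markers 1 rose and 4 fell, of 5 smooth muscle markers 3 fell and of 4 mast cell markers 1 fell. Of 8 ciliated-cell markers 0 passed with edgeR, DESeq2 or limma voom, with 1 at an unadjusted p under 0.05. In whole tissue, fewer cells of a type and less RNA per cell cannot be told apart, and the part of these cell markers in the RAB values was not tested.

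The RAB genes moved in both directions, and the share of them called, beside that of all genes, depended on the tool. Of the 60 members 55 had enough reads to test. In pregnant gilts 5 were higher, 8 were lower and 42 did not pass, at an adjusted p of 0.05 over all 18783 transcripts tested. The 13 that passed are 23.6% of the tested members, beside 21.6% called among all 15913 genes tested (11.6% higher and 10.1% lower). An unadjusted p under 0.05 in edgeR was found for 30 of the 55 tested members and for 5429 of the 15913 genes. The median log2 change, pregnant over control, was 0.13 over the tested members and −0.02 over all genes, and the median size of the change without its sign was 0.40 and 0.32. The 4 pregnant libraries lay entirely to one side of the 4 controls for 17 members, 7 higher and 10 lower, beside 25.9% of all genes. All 13 members that passed are among those 17. With 1 library left out, 2 members were higher without control replicate 3 and 3 without pregnant replicate 2 or 4, and 5 were lower without control replicate 1 or pregnant replicate 2 or 4. Calls among all transcripts were 4009 of 18783 with all libraries and 3011 of 18971 without control replicate 3. They were 2864 of 18975 without pregnant replicate 2, 2963 of 18942 without pregnant replicate 4 and 3656 of 19004 without control replicate 1. DESeq2 called 12 members higher and 11 lower, which include all 13 and are 41.8% of the members beside 26.7% of all genes. Limma voom called 25.5% of the members beside 21.8% of all genes. Below, levels in CPM are means ± SD with n = 4 animals per group, and changes are on the log2 scale ± SE.

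**Figure D1:**
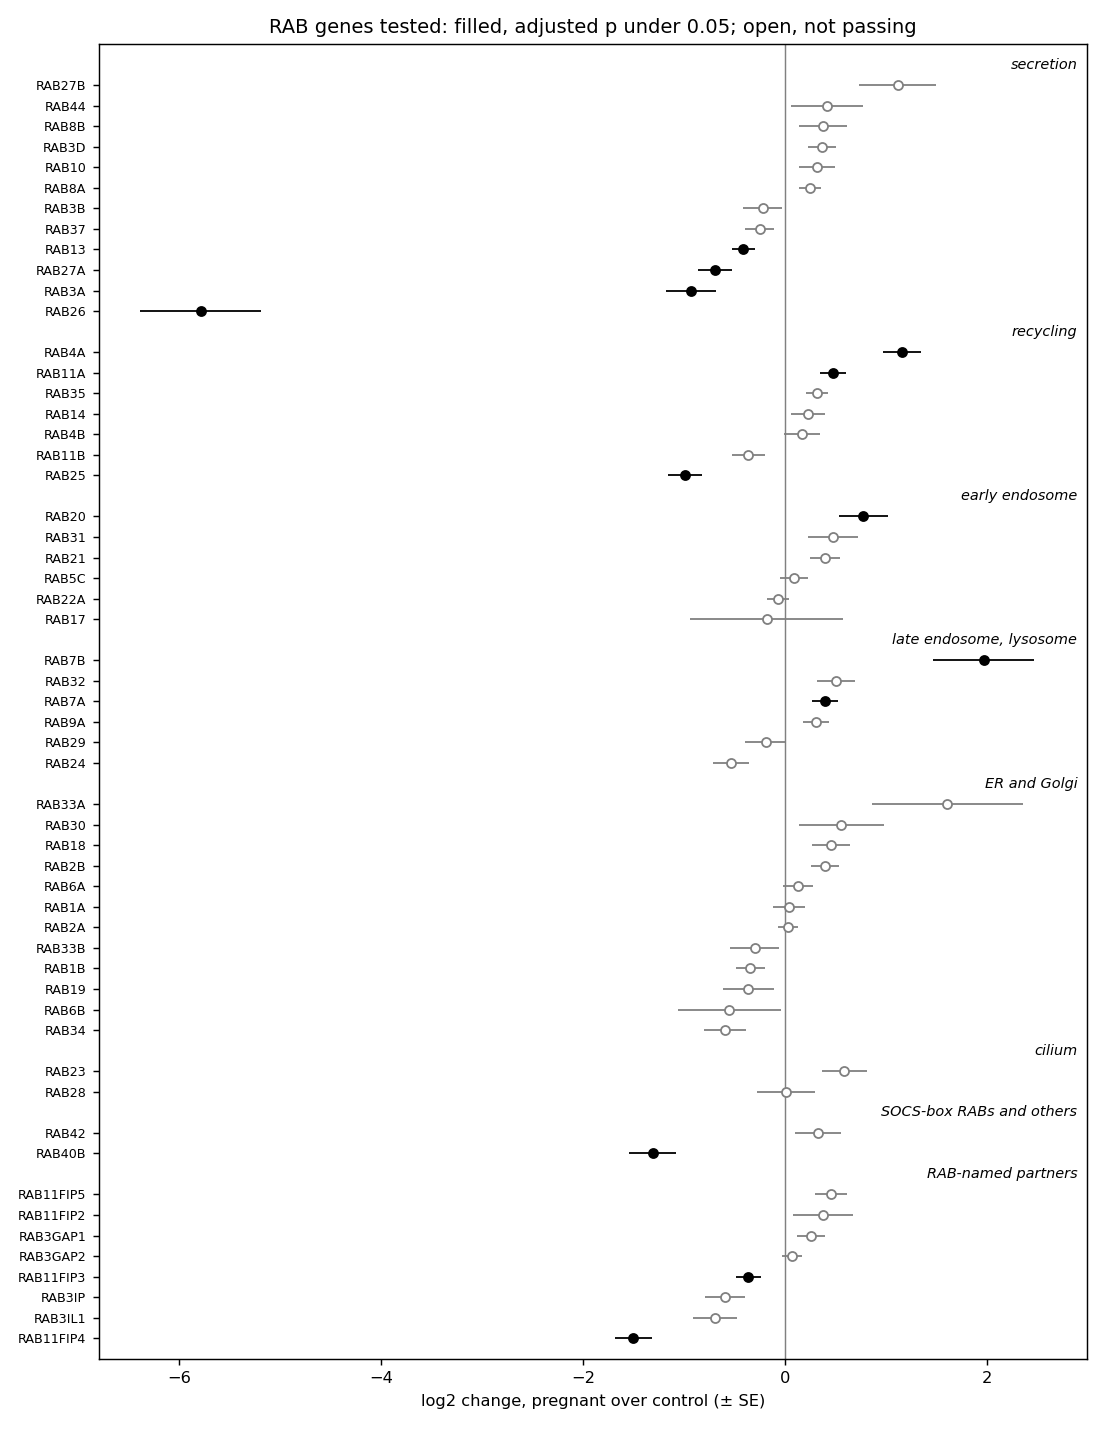
Log2 change of the 55 tested RAB genes (horizontal axis, pregnant over control, points with bars of 1 SE), grouped by the step of traffic they serve. Filled points passed an adjusted p of 0.05, and RAB26 at −5.79 lies far from the others, which span −1.50 to 1.97.

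Among the RABs of secretion, RAB26 was far lower in pregnant endometrium than in controls. Its product is found on secretory granules, where it serves their maturation in acinar cells. RAB26 stood at 877, 365, 720.3 and 122 CPM in control replicates 1 to 4 and at 8.28, 7.94, 11.1 and 10.5 in pregnant replicates 1 to 4. The controls were thus spread 7.17-fold among themselves, and the lowest of them, control replicate 4, was still far above the highest pregnant library. The mean fell from 521 ± 341 to 9.44 ± 1.56 CPM, a ratio of 55.2, with a log2 change of −5.79 ± 0.60 (edgeR adjusted p = 2.06e-04). The change passed in all 14 alternatives run, at −6.11 to −5.39. The controls had the same order for RAB26 as for the summed epithelial markers, which were 3799, 2748, 3227 and 2482 CPM in control replicates 1 to 4, a 1.53-fold spread. Singly, KRT18, KRT19 and CLDN3 had this order, and KRT8, CLDN4, CLDN7 and ELF3 were highest in control replicate 1 in another order. EPCAM, GRHL2 and ESRP1 were lowest in control replicate 1, where RAB26 was highest. The summed ciliated-cell markers, at 80.4, 60.0, 68.5 and 45.5 CPM in control replicates 1 to 4, had the order of RAB26 too. In pregnant replicates 1 to 4 the epithelial sum was 2605, 2174, 2359 and 1913 CPM. The ciliated-cell sum there was 40.3, 58.5, 67.2 and 66.8 CPM, and neither sum had the order of RAB26. The part of epithelial content in the RAB26 value was not tested.

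RAB26 weighed on the whole family. It had the highest level per kilobase of exon among the 52 GTPases in controls, and rank 34 in pregnant gilts. In controls it supplied 30.3, 15.9, 28.4 and 6.63% of the summed CPM of all RAB GTPases, and in pregnant gilts 0.42, 0.41, 0.56 and 0.55%. The family sum was 2391 ± 441 CPM in controls and 1953 ± 37.2 in pregnant gilts. Without RAB26 it was 1870 ± 128 and 1944 ± 37.0, so the other GTPases together were not lower in pregnant gilts.

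The Sscrofa10.2 annotation holds 2 models of RAB26 with the same layout. It places Entrez gene 100516791 on the plus strand of chromosome 3 at 42344039 to 42349573, and Entrez gene 100739113 at 42470477 to 42476011 on the same strand, 126438 bases further on. The reference gene table names the first RAB26 by its Entrez ID and the second by its transcript accession, so the rule takes the first. Both models have 9 exons and 1621 exonic bases, and 9 of 9 exons have equal length and offset. No other gene had an exact copy at this shift, and the sequences of the 2 places were not compared.

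Counts of the first model were 25851, 12196, 21702 and 4267 in controls and 234, 304, 335 and 343 in pregnant gilts. The second model had 25850, 12181, 21871 and 4302, and 234, 318, 317 and 343, so the models differed by at most 5.37% in any library. The second model gave a log2 change of −5.80 ± 0.59 (edgeR adjusted p = 1.97e-04). How reads that fit both places were counted is not given in the sources used here, so the level of RAB26 is uncertain and the models are not independent measurements.

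The second model alone also overlaps another gene. An unnamed model on the opposite strand, Entrez gene 100738223, shares 282 bases with it, which are 17.4% of the exonic bases of RAB26 and 45.0% of the 627 of the other gene. The library kit does not mark the strand, so reads in these bases cannot be assigned to one gene. The unnamed model had 6053, 2538, 4156 and 952 counts in controls, which are 19.0 to 23.4% of the RAB26 counts. In pregnant gilts it had 114, 170, 149 and 120, or 35 to 53.5%. The first model shares no exonic base with it, but both RAB26 models may hold the same reads, so the part of this overlap in the counts was not tested.

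**Figure D2:**
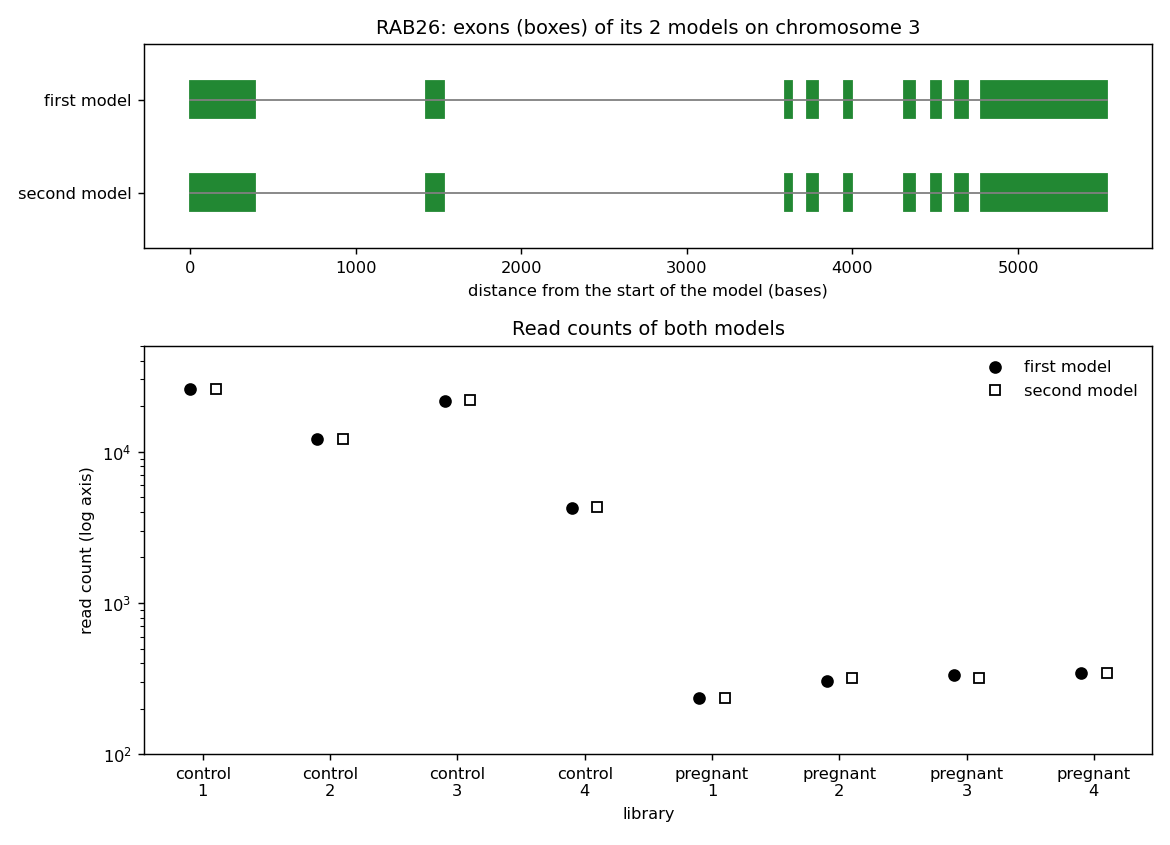
Upper panel: exons of both RAB26 models, drawn as boxes by distance in bases from the start of each model, with equal layout. Lower panel: read counts of the first (filled) and second (open) model in each library on a log axis. Counts were 4267 to 25851 in controls and 234 to 343 in pregnant gilts for the first model.

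Other RABs of regulated secretion were also lower, with smaller changes. RAB27A, which docks secretory granules at the plasma membrane, was at 12.1, 14.2, 14.0 and 10.1 CPM in controls and at 6.33, 7.89, 8.47 and 8.60 in pregnant gilts. It fell by 0.69 ± 0.17 on the log2 scale (edgeR adjusted p = 0.0155), and 13 of 14 alternatives kept the call, which was lost without control replicate 3 (0.0511). RAB3A, which acts in calcium-triggered release, was at 5.26, 4.88, 4.48 and 3.90 CPM in controls and at 3.50, 2.04, 1.79 and 2.41 in pregnant gilts. Pregnant replicate 1 lay close under the lowest control, and the fall of 0.93 ± 0.25 (edgeR adjusted p = 0.0225) was lost on leaving out control replicate 1 or 2, or pregnant replicate 2, 3 or 4 (up to 0.0735).

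RAB13, which carries cargo to epithelial tight junctions, was at 60.7, 49.5, 56.7 and 51.4 CPM in controls and at 43.9, 38.6, 39.5 and 42.2 in pregnant gilts. The groups did not overlap, and RAB13 fell by 0.41 ± 0.11 (edgeR adjusted p = 0.024). The call was lost on leaving out control replicate 1 or 3, or pregnant replicate 2, 3 or 4 (up to 0.0809).

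RAB27B, the close relative of RAB27A, had the opposite sign but did not pass. It was at 2.51, 3.65, 3.15 and 8.99 CPM in controls and at 13.2, 7.42, 7.97 and 11.4 in pregnant gilts. Control replicate 4 lay inside the pregnant range, and the log2 change of 1.12 ± 0.38 missed the threshold (edgeR adjusted p = 0.0599). Without that library it was 1.68 (adjusted p = 0.00164), and it also passed with DESeq2 and limma voom (range over the alternatives 0.00164 to 0.14).

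Over the 12 tested RABs of secretion 0 rose and 4 fell with edgeR (33.3%, beside 21.6% of all genes), and the median log2 change was 0.01. At an unadjusted p under 0.05 were 7 of the 12, beside 5429 of all 15913 genes. DESeq2 and limma voom each called 1 higher and 4 lower. The members that did not pass included RAB3D of secretory granules at 0.37 ± 0.14, whose model shares 55 bases with RGL3 on the opposite strand, and RAB3B at −0.22 ± 0.19. RAB8A, RAB8B and RAB10, which deliver new membrane to the cell surface, were at 0.25 ± 0.11, 0.38 ± 0.24 and 0.32 ± 0.18. RAB37 was at −0.25 ± 0.14 and the scarce RAB44 at 0.42 ± 0.36. RAB3C was not tested, with at most 8 counts in a library.

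Recycling RABs, which return cargo from endosomes to the surface, went in opposite directions. RAB4A, of the fast recycling route, was at 27.6, 44.2, 27.0 and 23.1 CPM in controls and at 64.8, 62.6, 72.9 and 72.6 in pregnant gilts. It rose 2.24-fold in the means, from 30.5 ± 9.38 to 68.2 ± 5.29 CPM, with a log2 change of 1.16 ± 0.19 (edgeR adjusted p = 0.00152), and passed in all 14 alternatives. RAB11A, the marker of the recycling endosome, was at 39.2, 55.4, 47.7 and 48.4 CPM in controls and at 62.9, 61.2, 68.8 and 73.4 in pregnant gilts. Its rise was smaller, 0.48 ± 0.13 (edgeR adjusted p = 0.0221), and was lost on leaving out control replicate 3, or pregnant replicate 3 or 4 (up to 0.0662).

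RAB25 is a RAB11 relative of epithelial cells and serves recycling to the apical side. It was at 61.9, 42.9, 44.4 and 38.2 CPM in controls and at 24.2, 22.5, 28.2 and 19.7 in pregnant gilts. All pregnant values lay below the lowest control, and RAB25 fell, with means of 46.8 ± 10.4 and 23.6 ± 3.59 CPM and a log2 change of −0.99 ± 0.17 (edgeR adjusted p = 0.00246), passing in all 14 alternatives. Beside it, the epithelial markers KRT8, KRT18, KRT19 and ESRP1 fell too, CLDN4 rose, and EPCAM was at −0.32 with an adjusted p of 0.315, so the epithelial markers did not share 1 direction.

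RAB11B, the third RAB11 gene, was at 374, 250.0, 262 and 232 CPM in controls and at 230.1, 228, 222 and 193 in pregnant gilts. The groups did not overlap, with pregnant replicate 1 close under control replicate 4, but the log2 change of −0.36 ± 0.16 did not pass (edgeR adjusted p = 0.136). RAB35 was at 0.32 ± 0.11 (adjusted p = 0.065), RAB14 at 0.23 ± 0.17 and RAB4B, the relative of RAB4A, at 0.17 ± 0.18. Of the 7 recycling RABs 2 rose and 1 fell with edgeR (42.9%, beside 21.6% of all genes), with a median log2 change of 0.23. DESeq2 called 3 higher, adding RAB35, and 1 lower, and limma voom 2 and 1.

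RAB20, a RAB of early endosomes and phagosomes, was the early endosome member that passed. It was at 11.2, 7.67, 9.86 and 5.07 CPM in controls and at 16.9, 16.8, 11.5 and 12.6 in pregnant gilts. The gap between control replicate 1 and pregnant replicate 3 was narrow, and the rise of 0.78 ± 0.24 (edgeR adjusted p = 0.0452) was lost on leaving out control replicate 2, 3 or 4, or pregnant replicate 1, 2 or 4 (up to 0.122).

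The other 5 early endosome members did not pass with edgeR, so 16.7% of the 6 passed, beside 21.6% of all genes. DESeq2 called 2 of the 6 higher, adding RAB21, and limma voom 1. RAB5C, which drives fusion of early endosomes, was at 247, 180.0, 182 and 166 CPM in controls and at 216, 228, 199 and 185 in pregnant gilts. These values overlap throughout, with a log2 change of 0.09 ± 0.14 (edgeR adjusted p = 0.682). RAB21 was at 0.40 ± 0.15, RAB31 at 0.48 ± 0.25, RAB22A at −0.07 ± 0.11 and RAB17, an epithelial RAB with 0.0610 to 3.15 CPM, at −0.18 ± 0.76.

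Late endosome and lysosome RABs included both RAB7 genes among those that rose. RAB7B, which works between late endosomes and the Golgi and is known from macrophages, was at 0.102, 0.659, 0.564 and 1.20 CPM in controls and at 2.02, 2.85, 2.48 and 2.69 in pregnant gilts. All controls were low, with 3, 22, 17 and 42 reads in control replicates 1 to 4, so their level rests on few reads. RAB7B rose 3.97-fold in the means, with a log2 change of 1.97 ± 0.50 (edgeR adjusted p = 0.017). It passed in all 14 alternatives at 1.64 to 2.48, with an adjusted p of up to 0.049, close to the threshold. Macrophage and dendritic cell markers moved the same way, at 369 to 678 CPM in sum in controls and 1092 to 1456 in pregnant gilts, and their part in this rise was not tested.

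RAB7A, which governs transport from late endosomes to lysosomes, was the more abundant of the pair, at 79.9 and 1.05 CPM per kb of exon in controls. It was at 166, 153, 171 and 144 CPM in controls and at 244, 187, 222 and 181 in pregnant gilts. It rose by 0.40 ± 0.13 on the log2 scale (edgeR adjusted p = 0.0484), close to the threshold, and was lost on leaving out control replicate 2, 3 or 4, or pregnant replicate 1, 2 or 3 (up to 0.12).

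RAB24, a RAB tied to autophagy, was at 139, 172, 105 and 113 CPM in controls and at 95.3, 81.5, 113 and 76.5 in pregnant gilts. Pregnant replicate 3 lay inside the control range, and the log2 change of −0.53 ± 0.18 did not pass (edgeR adjusted p = 0.0601). RAB24 passed with DESeq2, and on leaving out control replicate 3 or 4 or pregnant replicate 3. RAB9A, which returns mannose 6-phosphate receptors to the Golgi, was higher in every pregnant library without passing (0.31 ± 0.13, adjusted p = 0.122). RAB32, of lysosome-related organelles, was at 0.51 ± 0.19 and passed without control replicate 4 (0.71, adjusted p = 0.00889) and with DESeq2. RAB29 was at −0.19 ± 0.20. RAB38 and RAB9B were not tested, and RAB9B had 2 counts in a single library. Of the 6 tested members of this group 2 rose and 0 fell with edgeR (33.3%, beside 21.6% of all genes), and limma voom gave 2 and 0 and DESeq2 3 and 1. At an unadjusted p under 0.05 were 5 of the 6, beside 5429 of all 15913 genes.

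**Figure D3:**
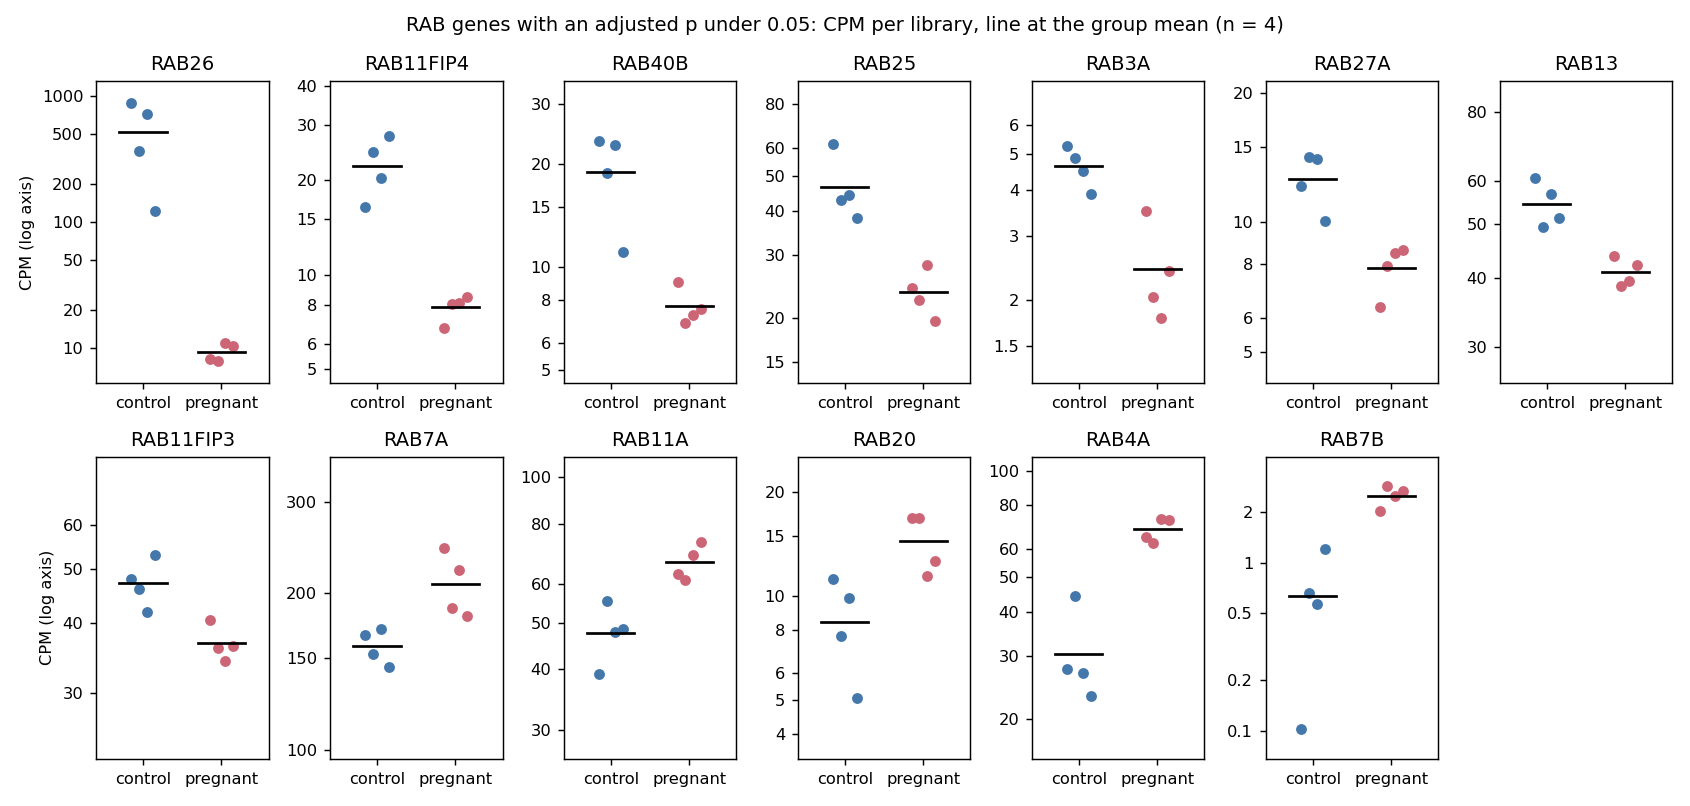
CPM of the 13 RAB genes that passed, 1 point per library, on log axes that differ between panels, with a line at each group mean (n = 4). In every panel the groups do not overlap, and the control spread of RAB26, 122 to 877 CPM, is the widest in CPM.

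RABs of the ER and Golgi gave no call in the edgeR fit of all libraries on the group alone with TMM scaling. Of 14 genes 12 were tested, 0 passed in either direction with edgeR, beside 21.6% of all genes, and the median log2 change was 0.03. At an unadjusted p under 0.05 were 4 of the 12, beside 5429 of all 15913 genes. DESeq2 called 1 higher, RAB2B, and limma voom 0. RAB2B also passed in edgeR with RLE size factors, and on leaving out control replicate 2 or pregnant replicate 1. RAB18 and RAB34 passed with a replicate block. RAB1B, which acts between ER and Golgi, was at 49.2, 44.8, 36.3 and 35 CPM in controls and at 33.1, 32.4, 29.8 and 35.1 in pregnant gilts. Its groups overlapped through control replicate 4 (log2 change −0.34 ± 0.14, edgeR adjusted p = 0.103).

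Several of these RABs stood almost level. RAB1A had means of 35.2 ± 5.79 CPM in controls and 36.2 ± 5.77 in pregnant gilts, and RAB2A, which tethers vesicles between ER and Golgi, at 130.4 ± 8.22 and 133 ± 9.02, with log2 changes of 0.04 ± 0.16 and 0.03 ± 0.10. RAB6A, of transport within and from the Golgi, was at 0.13 ± 0.15. RAB2B was at 0.40 ± 0.14 (adjusted p = 0.0635), and its model shares 152 bases with TOX4 on the opposite strand. RAB18, of lipid droplets and the ER, was at 0.46 ± 0.19, RAB34 at −0.59 ± 0.21, RAB19 at −0.36 ± 0.25 and RAB33B at −0.30 ± 0.24. RAB33A, RAB30 and RAB6B stayed under 1.5 CPM in every library, with log2 changes of 1.61 ± 0.75, 0.56 ± 0.42 and −0.55 ± 0.51. RAB39A and RAB39B were not tested, with at most 14 counts in a library.

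The cilium RABs gave 0 calls of 2 with edgeR and limma voom, beside 21.6% and 21.8% of all genes. DESeq2 called RAB23 higher, beside 26.7% of all genes called in either direction. RAB23, known from Hedgehog signalling in cilia, was higher in every pregnant library, at 5.23 ± 1.26 and 7.87 ± 1.09 CPM, but its log2 change of 0.59 ± 0.22 did not pass (edgeR adjusted p = 0.0801). RAB28 was at 1.92 ± 0.58 and 1.93 ± 0.42 CPM, a log2 change of 0.01 ± 0.29.

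RAB40B carries a SOCS box, by which it joins a ubiquitin ligase. It was at 23.3, 18.8, 22.8 and 11.1 CPM in controls and at 9.06, 6.85, 7.21 and 7.54 in pregnant gilts. Control replicate 4 lay nearest to the pregnant libraries. RAB40B fell, with means of 19.0 ± 5.65 and 7.66 ± 0.97 CPM and a log2 change of −1.31 ± 0.23 (edgeR adjusted p = 0.00233), and passed in all 15 alternatives, its shorter transcript included. RAB42, listed in the same group, was at 0.33 ± 0.23 and did not pass.

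Among the 8 partner proteins 0 rose and 2 fell with edgeR (25.0%, beside 21.6% of all genes). DESeq2 called 1 higher and 4 lower, and limma voom 0 and 2. Both that fell with edgeR are RAB11FIP genes, whose products bind RAB11, but RAB11FIP5 and RAB11FIP2 had positive log2 changes that did not pass. RAB11FIP4 was at 16.5, 24.5, 20.3 and 27.6 CPM in controls and at 6.76, 8.05, 8.14 and 8.51 in pregnant gilts. It fell from 22.2 ± 4.87 to 7.86 ± 0.76 CPM, a ratio of 2.83 (log2 change −1.50 ± 0.18, edgeR adjusted p = 2.55e-04), in all 14 alternatives. RAB11FIP3, which brings RAB11 vesicles to the dividing cell's midbody, was at 48.0, 46.0, 41.8 and 53.0 CPM in controls and at 40.6, 36.1, 34.2 and 36.4 in pregnant gilts. Its fall of 0.36 ± 0.12 had an edgeR adjusted p = 0.0492 and passed in 1 of 14 alternatives, DESeq2 (0.037 to 0.123).

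RAB11FIP5 had the other sign at 0.46 ± 0.16 (edgeR adjusted p = 0.068), and RAB11FIP2 was at 0.38 ± 0.30. The exchange factor genes RAB3IP and RAB3IL1, whose products activate RAB8, were at −0.59 ± 0.20 and −0.69 ± 0.22 with adjusted p of 0.0555 and 0.0507. Both passed with DESeq2. RAB3GAP1 and RAB3GAP2, the subunits of 1 complex, were at 0.26 ± 0.14 and 0.07 ± 0.10.

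For the 13 members that passed, the control nearest to the pregnant libraries was control replicate 4 in 6, control replicate 2 in 3, and control replicates 1 and 3 in 2 each. The same count was not made over all called genes, so whether this is particular to the RABs was not tested. Without control replicate 4, 14 members passed, 6 higher and 8 lower, of which 10 were among the 13. Among all transcripts 4127 of 18945 were called without that library and 4009 of 18783 with it.

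Close relatives were then compared within each library, which removes the library size from the value. Of 20 pairs of related RABs listed, 14 had both members tested. The log2 ratio of RAB26 to RAB37, its nearest relative in the list, was 4.98 ± 1.33 in controls and −0.22 ± 0.25 in pregnant gilts, so that RAB26 had far more reads than RAB37 in controls and about as many in pregnant gilts. The ratio of RAB11A to RAB25 was 0.04 ± 0.48 and 1.5 ± 0.27, that of RAB11A to RAB11B −2.54 ± 0.49 and −1.71 ± 0.23, and that of RAB27A to RAB27B 1.63 ± 0.99 and −0.32 ± 0.54. RAB10 to RAB13 (−0.01 ± 0.51 and 0.75 ± 0.17) and RAB3B to RAB3D (0.09 ± 0.29 and −0.48 ± 0.10) also had groups that did not overlap.

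These 6 ratios reached the smallest p that 4 libraries against 4 allow (two-sided exact permutation test over 35 arrangements, p = 0.0286), which is 0.0667 after adjustment over the 14 pairs, so 0 pairs passed. RAB4A to RAB4B went from −0.48 ± 0.55 to 0.54 ± 0.34 and RAB7A to RAB7B from 8.34 ± 1.51 to 6.37 ± 0.41, each with an exact permutation p = 0.0571. The pair RAB8A and RAB8B had a ratio of 2.31 ± 0.55 and 2.17 ± 0.32 (exact permutation p = 0.657).

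**Figure D4:**
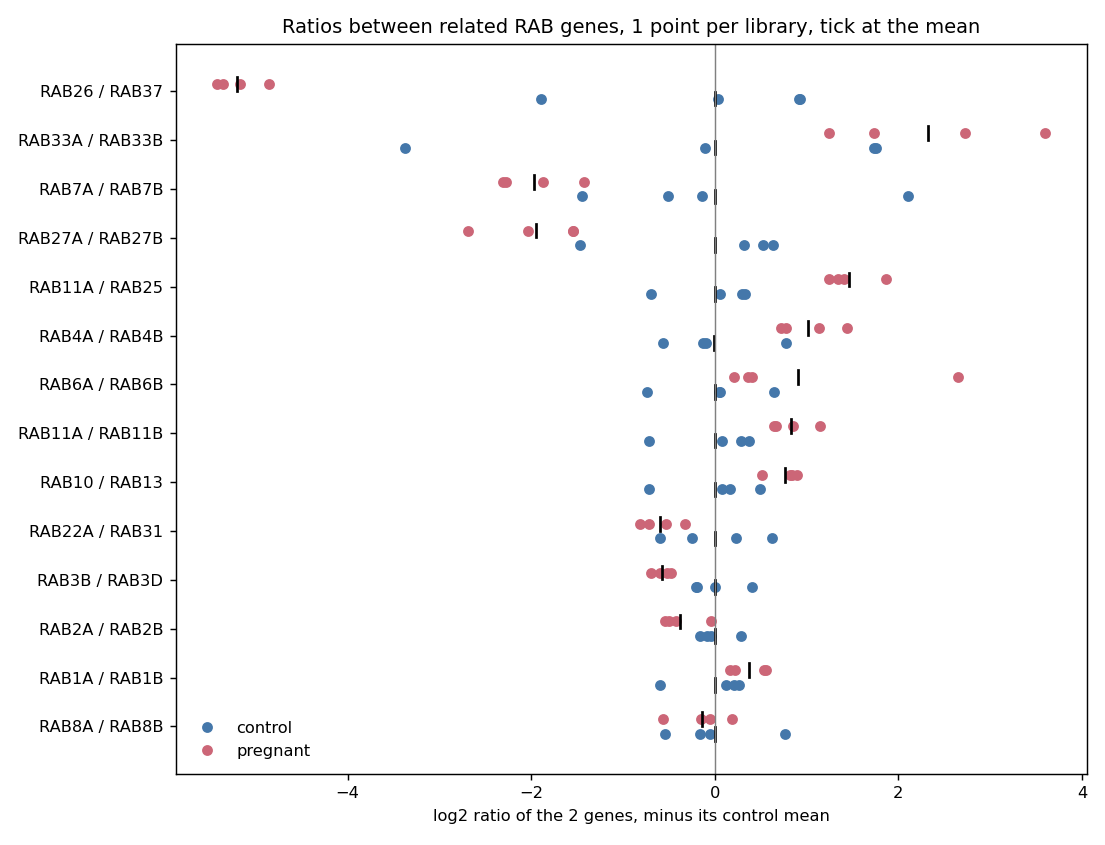
Log2 ratio of the CPM of 2 related RAB genes in each library, minus the control mean of that ratio, for 14 pairs (control blue, pregnant red, tick at the group mean). The groups do not overlap in 6 pairs, and RAB26 to RAB37 has the largest shift, −5.20.

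Levels of different RABs were compared per kilobase of exon, in CPM per kb. In controls RAB26 led at 322 ± 211, with 541, 225, 444 and 75.4 in replicates 1 to 4, so control replicate 4 would place it behind several others. It was followed by RAB1B at 145 ± 23.9, RAB11B at 122 ± 28.0, RAB5C at 116 ± 21.7, RAB24 at 105 ± 24.2 and RAB7A at 79.9 ± 6.15, and the means of neighbours among RAB1B, RAB11B, RAB5C and RAB24 lie within 1 SD of each other. In pregnant gilts RAB5C led at 124 ± 11.4, then RAB1B at 114 ± 7.67, RAB7A at 105 ± 15.0, RAB11A at 102 ± 8.58 and RAB11B at 95.0 ± 7.57. The mean of RAB5C was above the highest library of RAB1B, though the libraries of each pair of neighbours in this order overlapped. RAB26 was at 5.83 ± 0.96. The model of RAB1B has only 285 exonic bases, the shortest of the members, whose median is 1363, so its place in this order is uncertain.

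**Figure D5:**
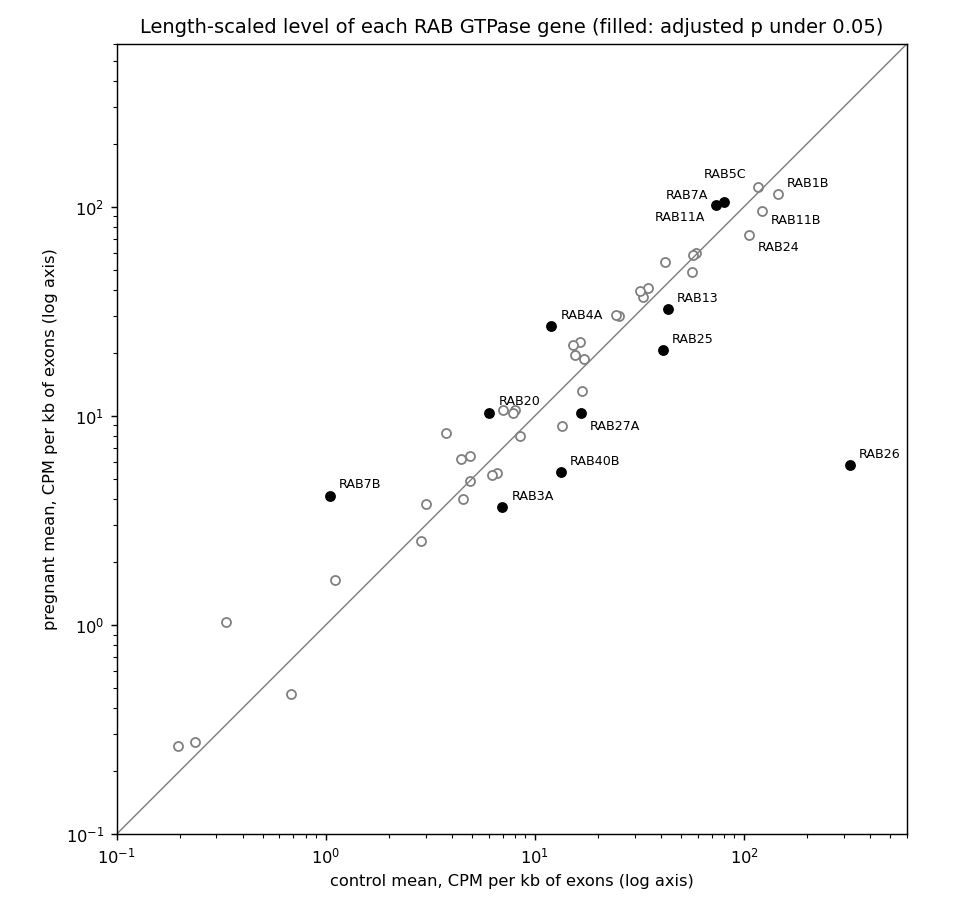
Mean level of 48 RAB GTPase genes in controls (horizontal) and pregnant gilts (vertical), in CPM per kb of exon on log axes, with the line of equality. Filled points passed an adjusted p of 0.05, and RAB26 lies far below the line at 322 and 5.83. The 4 genes under 0.1 CPM per kb in a group are not drawn.

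The proteins that act on RABs were listed by function, and the share that passed is to be read beside the 21.6% of all genes. Counts at an unadjusted p under 0.05 are to be read beside 5429 of all 15913 genes. Of 9 genes for prenylation and membrane extraction 0 rose and 1 fell with edgeR, DESeq2 and limma voom alike, with 1 at an unadjusted p under 0.05. The gene that fell was RABIF, a chaperone of nucleotide-free RABs (−0.49 ± 0.14, adjusted p = 0.0351). RABGGTB, a subunit of the prenyl transferase, was at 0.38 ± 0.17, and PDE6D at 0.31 ± 0.15.

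Among 25 exchange factors 1 rose, DENND6A (0.61 ± 0.19, edgeR adjusted p = 0.0397), and 0 fell, with 5 at an unadjusted p under 0.05. DESeq2 called 1 and 3 and limma voom 1 and 1. RAB3IL1 and RAB3IP, given above, had the next smallest p. Of 33 GTPase-activating proteins 2 rose and 4 fell, a share of 18.2%. EVI5L, related to the RAB11 regulator EVI5, was at 63.3 ± 3.59 and 46.8 ± 5.51 CPM (−0.44 ± 0.12, adjusted p = 0.0223), TBC1D10C at 205 ± 53.7 and 126 ± 21.2 CPM (−0.71 ± 0.19, 0.0246), and TBC1D30 at 13.7 ± 2.60 and 24.2 ± 7.28 CPM (0.82 ± 0.23, 0.0269). TBC1D30 had overlapping groups, with control replicate 2 at 17.6 CPM and pregnant replicate 1 at 15.1.

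Secretory and motor effectors had the highest share that passed among the function lists, 50.0% of 18 tested genes, 6 higher and 3 lower, with a median of 0.04. These 9 genes include different members of the same families in both directions. The myosin V gene MYO5C, whose motor carries secretory granules in glands, rose from 25.6 ± 4.77 to 75.4 ± 15.1 CPM (1.56 ± 0.18, edgeR adjusted p = 2.04e-04). MYO5B, the motor that binds RAB11 and RAB25, fell from 112 ± 6.88 to 64.2 ± 5.48 CPM (−0.81 ± 0.11, 4.92e-04), and MYO5A rose (0.47 ± 0.13, 0.025).

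UNC13D, which works with RAB27 in granule release, fell from 156 ± 28.9 to 65.8 ± 8.96 CPM (−1.25 ± 0.16, edgeR adjusted p = 3.23e-04). Of the synaptotagmin-like RAB27 effectors SYTL5 fell (−1.95 ± 0.42, 0.00781), and SYTL3 (1.25 ± 0.31, 0.0163) and SYTL2 (0.85 ± 0.26, 0.0423) rose. SYTL5 and SYTL3 were scarce, with means of 1.22 and 1.11 CPM in controls and 0.316 and 2.64 in pregnant gilts. The groups of SYTL2 overlapped, with control replicate 4 at 16.4 CPM and pregnant replicate 2 at 15.0. EHBP1L1 and OPTN, which bind RAB8 family members, rose by 0.58 ± 0.13 and 0.64 ± 0.18. OPTN had overlapping groups, with control replicate 2 at 53.7 CPM and pregnant replicate 1 at 52.0. T and NK cells also use UNC13D, which fell, and SYTL3, which rose. In the same libraries 11 of 11 markers of these cells rose, and the part of these cells in either value was not tested.

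Of 9 recycling effectors 0 rose and 2 fell with edgeR, the RAB11FIP4 and RAB11FIP3 already described, with 3 at an unadjusted p under 0.05. DESeq2 gave 1 and 2 and limma voom 0 and 1. Of 5 tested subunits of the exocyst, the complex that tethers vesicles to the plasma membrane, EXOC2 rose from 148 ± 12.7 to 199.7 ± 5.36 CPM (0.44 ± 0.10, edgeR adjusted p = 0.0128). EXOC5 was at 0.94 ± 0.31 (0.0523) and EXOC1 at −0.24 ± 0.12.

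Of 23 endosome and lysosome effectors 2 rose and 3 fell. PLEKHM2, which links lysosomes to kinesin, fell from 309 ± 31.7 to 199.4 ± 19.1 CPM (−0.63 ± 0.12, edgeR adjusted p = 0.00415). The RAB5 effectors ANKFY1 and EEA1 rose by 0.56 ± 0.13 and 0.84 ± 0.26, and another, APPL2, fell (−0.50 ± 0.14), as did VPS39 of the lysosomal tether HOPS (−0.42 ± 0.13). Of 19 Golgi effectors and tethers 2 rose and 2 fell. Subunits of the COG complex, a Golgi tether, went both ways, with COG6 at −0.97 ± 0.15 (0.00124), COG7 at −0.52 ± 0.13 and COG5 at 0.76 ± 0.21, and the golgin GOLGB1 rose by 0.43 ± 0.11. COG5 had overlapping groups, with control replicate 4 at 9.88 CPM and pregnant replicate 2 at 9.41.

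Of 16 secretory SNAREs and their SM partners, the fusion machinery downstream of RABs, 3 rose and 2 fell, 31.2% in all. STX1A, a syntaxin of regulated release, fell from 4.49 ± 0.55 to 2.62 ± 0.34 CPM (−0.77 ± 0.20, edgeR adjusted p = 0.0205). STX11, a syntaxin of cytotoxic cells and macrophages, rose from 2.96 ± 1.22 to 22.3 ± 9.91 CPM (2.91 ± 0.37, 3.42e-04). STX7 and STX12, of endosomes, rose by 0.65 ± 0.16 and 0.51 ± 0.16.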

How the data were processed

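Poly(A) RNA of 4 control and 4 pregnant gilts was sequenced from libraries that do not mark the strand (5 µg of total RNA, RNA integrity numbers 7.0 to 8.8, fragments of 200 ± 25 bp, 15 PCR cycles), per the labels' protocols. The authors deposited whole-number read counts per transcript of a merged assembly, 24139 in all, and 2 annotation files with exon positions. Tools named in the submitters' processing notes are TopHat 1.4, Cufflinks 1.3, CASAVA 1.6 and DESeq, with the build Sscrofa10.2; the counting tool is not given in the sources used here. Of the counts from 1 to 10, 76.4% were even. Coordinates come from the deposited annotation and are counted from 1. Names, and nothing else, were taken from RefSeq's Sscrofa11.1 gene table, through the Entrez ID for 16270 genes and the transcript accession for 103.

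The deposited counts of all transcripts were fitted with edgeR 4.0.16 in R 4.3.3 (TMM scaling, filterByExpr at 10 counts, robust quasi-likelihood F test on the group). Adjustment by Benjamini and Hochberg covered 18783 transcripts; 5356 were filtered out. CPM used TMM-scaled library sizes. Paralog ratios had a prior of 0.5 counts. PCR reads are not independent molecules. DESeq2 1.42.0, limma 3.58.1 (voom), RLE size factors, no filter, 1 transcript per gene, the lowest transcript, a replicate block and each library left out were the alternatives. On simulated data for this comparison (18597 transcripts) edgeR recovered 9.6% of the 73 genes set to change 1.5-fold, 51.7% of the 60 set to 2-fold and 89.1% of the 64 set to 4-fold, with 7 false among 102 calls.

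The members, gene lists and tests were chosen with earlier results of these data known. The text gives per-library values for members that passed and for the 6 with the highest level per kb, and names from each function list the 3 genes with the smallest p. Further members of a list were named because they passed, and RAB27B was given per library after its values were seen. Cell marker lists are given by counts and sums, and their 3 genes with the smallest p only in part. A gene that this rule takes in is not reported here.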

Additional observations from a re-analysis of the deposited data

Results flagged for a closer look

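In 4 of the 110 groups of 4 libraries examined (55 tested RAB genes in each group), the highest or lowest library stood apart from the nearest one by more than Dixon's critical share of the group's range. Chance flags about 1 in 20 such groups. RAB8A stood at 55.3 CPM in control replicate 1, the highest control, with a gap of 0.96 of the range. RAB23 was lowest in control replicate 1 at 3.36 CPM (gap 0.85). RAB3IP was lowest in pregnant replicate 2 at 4.62 CPM (gap 0.844). RAB6B was lowest in pregnant replicate 3 at 0.132 CPM (gap 0.831), a level of few reads.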

How the results depend on the processing

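The count of higher RAB genes was 12 with DESeq2, against 5 with edgeR, and ranged from 2 to 7 when 1 library was left out (2 without control replicate 3, 3 without pregnant replicate 2 or 4), while the count of lower genes ranged from 5 to 8 (5 without control replicate 1 or pregnant replicate 2 or 4). The replicate block gave 7 higher and 9 lower. Among all transcripts the calls were 4009 with all libraries and 3883 with the block. With 1 library left out they ranged from 2864 (without pregnant replicate 2) to 4127 (without control replicate 4). Control and pregnant libraries with the same replicate number had correlations of −0.069 to 0.166, beside −0.293 to 0.143 for those with different numbers. So few values cannot settle whether they pair. The count of paralog ratios that passed was 0 in every alternative run, but the smallest p the exact test can give leaves little room for a pass, and without control replicate 4 there were 8 pairs at an adjusted p of 0.05 itself. Log2 changes near 0 changed sign for RAB2A (−0.02 without control replicate 4, −0.01 without pregnant replicate 1, up to 0.08), RAB1A (−0.03 without control replicate 1, −0.07 without pregnant replicate 4, up to 0.13), RAB28 (−0.15 and −0.03 without control replicates 1 and 3, −0.16 without pregnant replicate 2, up to 0.13) and RAB17 (0.09 without control replicate 1 or 3, 0.22 without pregnant replicate 4, down to −0.93 without pregnant replicate 1). The change in the log2 ratio of RAB8A to RAB8B, pregnant minus control, was 0.11 without control replicate 1 and −0.33 without control replicate 4. The cause was not tested in any of these. Of 790 recomputed changes of single genes, 709 kept direction and call, 39 lost the call, 32 gained it and 10 changed sign. RAB26, RAB11FIP4, RAB4A, RAB25, RAB40B and RAB7B passed in every alternative run. The simulation set 73, 60 and 64 genes to change among 18597 transcripts, while 4009 of 18783 transcripts passed in the data. Its low recovery of 1.5-fold changes therefore does not carry over to these members. RAB7A and RAB13 passed with ratios of the means of 1.317 (higher) and 1.329 (lower). With 4 animals per group, a member that did not pass may still differ, by an amount that depends on its SE. That SE was 0.1 for RAB2A and 0.76 for RAB17 on the log2 scale.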
